A study of Homo sapiens with 6 samples.

Results

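FOS and JUN proteins are the subunits of AP-1, a transcription factor that binds DNA only as a dimer. The genes FOS, FOSB, FOSL1 and FOSL2 encode the FOS side and JUN, JUNB and JUND the JUN side, and these 7 genes were described here through every probe set whose annotation names 1 gene and that gene is among them. This gave 23 probe sets of the 49395 in the table: 4 for FOS, 2 for FOSB, 6 for FOSL1, 5 for FOSL2, 4 for JUN, 1 for JUNB and 1 for JUND. The 7 genes, of 18132 named by single-gene probe sets, were chosen by family, with the endosulfan and control values of FOS on these arrays in view, so their differences between the groups are given below as a description, with limma's errors and intervals and with no p-value, and the count of calls is read as no support.

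The cells were SH-SY5Y, an established human neuroblastoma line of sympathetic neuron type. Of 6 one-colour expression arrays, 3 held RNA from cells exposed to 3 µM endosulfan, an organochlorine insecticide, for 24 h and 3 held RNA from control cells, grown alike in serum-containing medium. The treatment of the control cells, for example a solvent, is not stated in the labels. The arrays are labelled as biological replicates without naming a culture or day, so the errors below measure the spread between these arrays, and the small number of arrays limits the precision. Each value is a log2 RMA value, in which 1 unit is a doubling. Values of different probe sets cannot be compared as levels, so each probe set was compared with itself between groups.

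A FOS protein cannot form a stable dimer with another FOS protein and needs a JUN protein as partner, whereas JUN proteins also pair with each other. FOS, FOSB, JUN and JUNB are classic immediate early genes: growth factors, calcium entry and stress switch them on within minutes through MAP kinases and through factors already bound to their promoters, and the FOS mRNA, which carries AU-rich decay signals, then disappears quickly. FOSL1 and FOSL2 follow more slowly, and JUND is expressed more constantly. In neurons FOS is widely used as a marker of recent activity.

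Promoter stretches are shown because they can carry some of the elements through which these genes are switched on. FOS can be read beside FOSB and JUN, which had much smaller differences on the arrays. Each is the 130 bases directly upstream of the RefSeq transcription start on the gene's own strand (build GRCh38.p14). Of the 7 genes, 6 were matched in the RefSeq promoter table, and FOSL1 was not. Capitals mark matches, on either strand, to TGACG (the core of the cAMP response element, read as CGTCA on the other strand), TGACGTCA (the whole element, which contains TGACG), TGACATCA (the AP-1-like element known from the JUN promoter) or TATAAA (the TATA box).
FOS, chr14:75278698-75278827, plus strand: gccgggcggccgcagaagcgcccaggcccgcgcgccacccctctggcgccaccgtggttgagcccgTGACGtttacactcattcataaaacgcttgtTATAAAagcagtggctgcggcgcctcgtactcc
FOSB, chr19:45467866-45467995, plus strand: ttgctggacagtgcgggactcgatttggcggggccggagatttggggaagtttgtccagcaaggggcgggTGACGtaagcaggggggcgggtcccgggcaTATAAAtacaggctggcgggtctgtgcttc
FOSL2, chr2:28392728-28392857, plus strand: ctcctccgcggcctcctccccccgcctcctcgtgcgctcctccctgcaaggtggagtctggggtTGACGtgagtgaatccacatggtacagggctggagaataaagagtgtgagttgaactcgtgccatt
JUN, chr1:58784048-58784177, minus strand: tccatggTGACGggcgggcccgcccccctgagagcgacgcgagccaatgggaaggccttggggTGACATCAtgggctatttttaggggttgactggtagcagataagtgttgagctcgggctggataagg
JUNB, chr19:12791356-12791485, plus strand: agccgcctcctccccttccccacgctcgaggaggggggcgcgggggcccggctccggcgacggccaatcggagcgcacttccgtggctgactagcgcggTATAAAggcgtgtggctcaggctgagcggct
JUND, chr19:18281623-18281752, minus strand: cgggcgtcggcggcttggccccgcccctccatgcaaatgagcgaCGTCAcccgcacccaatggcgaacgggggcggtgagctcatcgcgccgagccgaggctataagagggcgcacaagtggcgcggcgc

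The search covered the 250 bases upstream of each start. TGACG was found in all 6 member promoters and in 21.2% of the 35114 promoters of the table. In FOS it lay 64 to 60 bases upstream of the start, in FOSB 60 to 56 and in FOSL2 66 to 62, each on the gene's own strand. The JUN promoter held TGACATCA 67 to 60 bases upstream, a match found in 2.38% of all promoters. The whole element TGACGTCA was found in JUND alone among the 6, 200 to 193 bases upstream, and in 1.65% of all promoters. TATAAA lay 33 to 28 bases upstream in FOS, 30 to 25 in FOSB and 31 to 26 in JUNB, and was found in 10.7% of all promoters. The AP-1 element TGACTCA and the CArG box, the sequence bound by serum response factor, had no match in the 6 windows and matches in 4.20% and 1.16% of all promoters. Sequence farther upstream was not searched, so a gene without a match in its window may hold one there. The member promoters were 62.0% to 74.8% G and C against a median of 58.0%, a property that also changes how often a motif occurs. A match is a stretch of letters and not a measured binding site.

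FOS had the largest differences of the family, and they were unequal between its probe sets. On probe set 11734659_a_at, designed on the RefSeq mRNA, the control arrays read 3.91, 4.14 and 4.04 and the endosulfan arrays 7.18, 6.52 and 6.54 (log2). The endosulfan arrays were therefore all far above the control arrays, with a gap of 2.38 between the highest control and the lowest endosulfan value. The means were 4.03 ± 0.11 and 6.75 ± 0.38 (SD, n = 3 each), a difference of 2.72 ± 0.19 (SE) with a 95% interval of 2.29 to 3.15, or 6.58-fold. Endosulfan 1 was the highest array and the other two endosulfan arrays were level with each other. No larger positive difference was measured on any of the 49293 probe sets tested.

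The second FOS probe set, 11749291_a_at, read 5.35, 4.85 and 4.68 in control arrays and 6.72, 6.46 and 6.29 in endosulfan arrays. Its groups did not overlap either, and the difference was 1.53 ± 0.19 (SE), or 2.88-fold, with a 95% interval of 1.08 to 1.97. The third, 11749852_s_at, read 5.61, 5.52 and 5.74 against 6.30, 6.09 and 6.15. All 3 endosulfan arrays again lay above the control arrays, at a smaller difference of 0.56 ± 0.11 (SE), or 1.48-fold. The fourth, 11734658_s_at, read 6.57, 6.61 and 6.83 against 7.14, 6.73 and 7.0, a difference of 0.29 ± 0.14 (SE). Here the groups overlapped, because endosulfan 2 lay below control 3.

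All 4 FOS differences thus pointed the same way, and the 95% intervals of the 2 largest do not overlap each other or those of the remaining pair. The arrays' suffix a marks probes that match several transcripts of 1 gene, and the suffix s marks probes shared with transcripts of other genes. Both probe sets with suffix a had larger differences than both with suffix s. The annotation used names FOS alone for all 4, and whether the suffix bears on the size of the difference was not tested. Apart from 11734659_a_at, the FOS probe sets were designed on cDNA clones, and which part of the mRNA each one covers is not known from the annotation used. Averaged over the 4 probe sets in each array, FOS differed by 1.27 ± 0.12 (SE), or 2.42-fold.

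**Figure D1:**
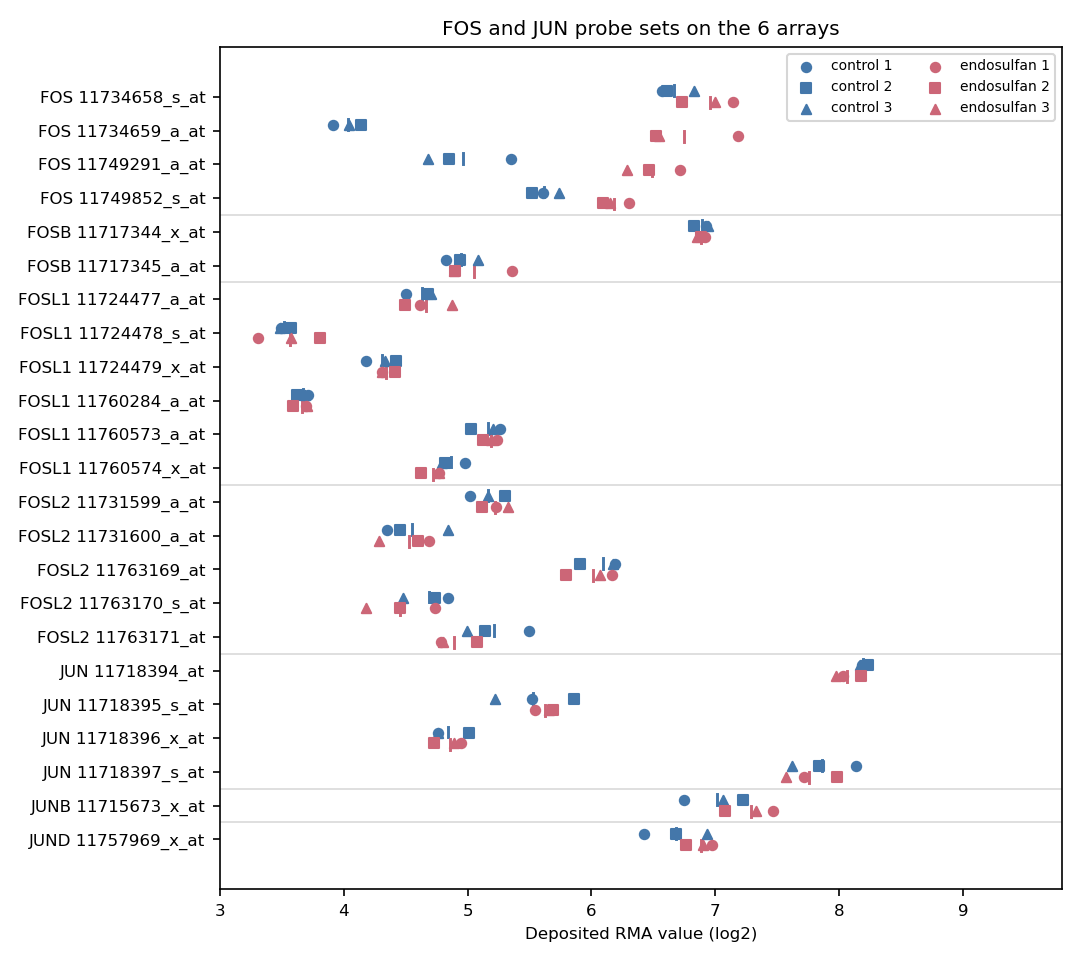
Deposited log2 RMA values (x axis) of the 23 FOS and JUN probe sets (rows) on the 3 control arrays (blue) and 3 endosulfan arrays (red), with the marker shape giving the replicate number and short vertical lines the group means. The groups are apart on 3 FOS probe sets, by the most on 11734659_a_at at 4.03 against 6.75, and nearly coincide for most others.

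FOSB, the closest relative of FOS and likewise induced by stimulation, had small differences with overlapping groups. Probe set 11717345_a_at, designed on the RefSeq mRNA, read 4.83, 4.94 and 5.08 in control arrays and 5.36, 4.90 and 4.89 in endosulfan arrays. Endosulfan 1 was the highest array, as for FOS, but the other two endosulfan arrays lay within the control range, and the difference was 0.10 ± 0.15 (SE) with a 95% interval of -0.25 to 0.45. On 11717344_x_at all 6 arrays lay between 6.83 and 6.94, and the difference was -0.01 ± 0.10 (SE). The suffix x marks probes that may also bind unrelated sequences.

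FOSL1, also called FRA-1, is a FOS protein without the transactivation domain of FOS and is a typical target of sustained ERK signalling. Its 6 probe sets had differences between -0.14 and 0.05, each with an SE of 0.10 to 0.14, and 95% intervals that ran from -0.39 at the lowest to 0.37 at the highest. On 11724477_a_at the control arrays read 4.51, 4.68 and 4.70 and the endosulfan arrays 4.62, 4.49 and 4.87, fully interleaved. The groups of 11760574_x_at did not overlap: it read 4.98, 4.82 and 4.80 against 4.77, 4.62 and 4.77, lower with endosulfan by a gap of 0.02 between the nearest arrays. The partner probe set 11760573_a_at, designed on the same clone, had a difference of 0.02 ± 0.11 (SE) and overlapping groups.

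FOSL2, or FRA-2, had 5 probe sets with differences from -0.32 to 0.06, 4 of them on the lower side, and all groups overlapped. The lowest, 11763171_at, read 5.50, 5.14 and 5.00 in control arrays and 4.78, 5.08 and 4.80 in endosulfan arrays. Endosulfan 2 lay above control 3, and the difference of -0.32 ± 0.16 (SE) had a 95% interval of -0.68 to 0.04. The probe set designed on the RefSeq mRNA, 11731600_a_at, differed by -0.02 ± 0.16 (SE).

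JUN, the main partner of FOS, had differences of -0.13 to 0.10 on its 4 probe sets, all with overlapping groups. Probe set 11718394_at had the tightest control arrays, at 8.19, 8.23 and 8.17, against 8.03, 8.17 and 7.98 with endosulfan. The groups only just overlapped, and the difference was -0.13 ± 0.10 (SE). Probe set 11718397_s_at read 8.14, 7.84 and 7.62 against 7.71, 7.98 and 7.57, a difference of -0.11 ± 0.17 (SE) with interleaved arrays. The remaining pair, 11718395_s_at and 11718396_x_at, differed by 0.10 ± 0.16 (SE) and 0.01 ± 0.12 (SE). Over the 4 probe sets the 95% intervals ran from -0.49 to 0.48.

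JUNB, an immediate early gene that can oppose JUN, was represented by 11715673_x_at alone. It read 6.75, 7.22 and 7.06 in control arrays and 7.47, 7.08 and 7.33 in endosulfan arrays. Endosulfan 2 lay below control 2, and the difference of 0.28 ± 0.16 (SE) had a 95% interval of -0.08 to 0.64, which neither shows a change nor excludes a moderate one. JUND, the most constant JUN gene, read 6.42, 6.68 and 6.93 against 6.98, 6.76 and 6.90 on 11757969_x_at. The groups overlapped through control 3, and the difference was 0.20 ± 0.15 (SE) with an interval of -0.14 to 0.54. Both rest on a single probe set with suffix x.

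**Figure D2:**
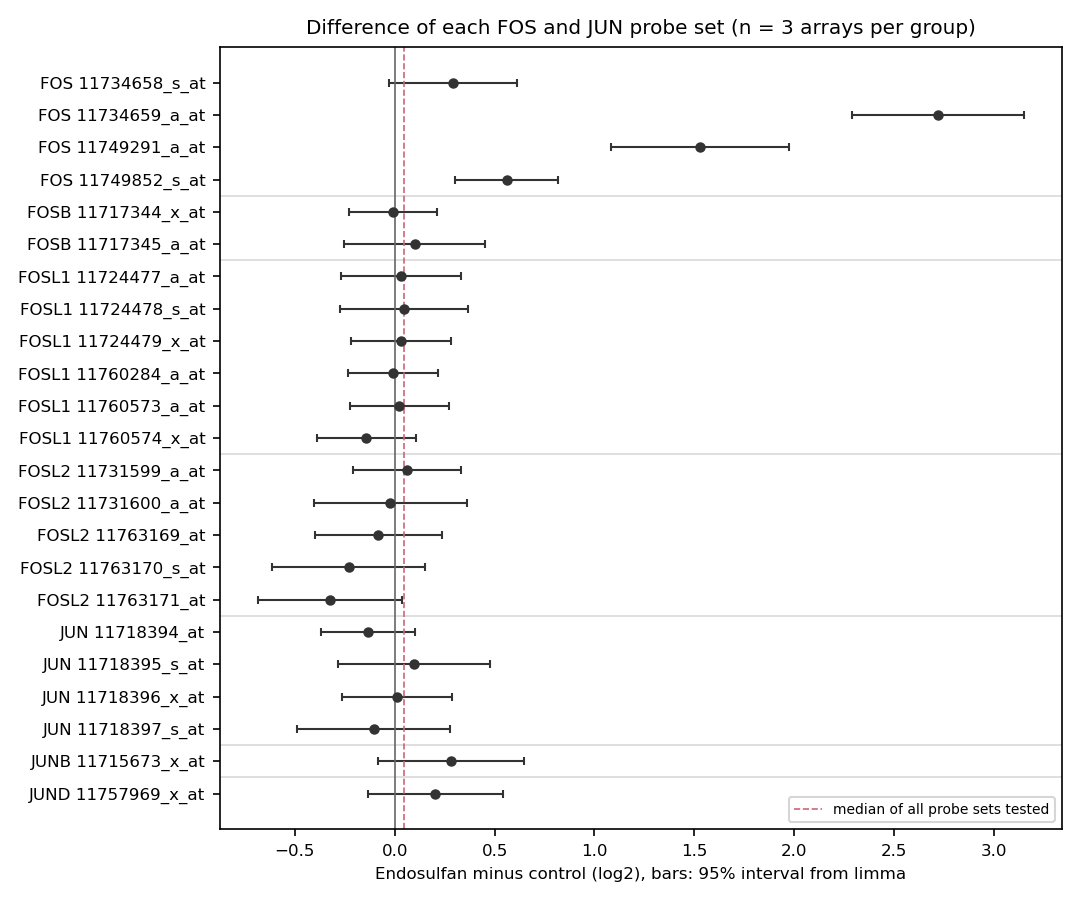
Endosulfan minus control difference (x axis, log2) of the 23 FOS and JUN probe sets, with 95% intervals from limma as bars (n = 3 arrays per group) and the median of all probe sets tested as a dashed line. Probe sets of FOS lie between 0.29 and 2.72, and those of the other 6 genes between -0.32 and 0.28.

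Counted together, 3 of the 23 probe sets were higher in every endosulfan array than in any control array, all of FOS, against 11.5% of all 49293 probe sets. Another was lower without overlap, that of FOSL1, against 9.24% of all probe sets, and 19 overlapped. With limma and a Benjamini-Hochberg adjusted p below 0.05 over all probe sets, 1 of the 23 was called higher (FOS 11734659_a_at), against 0.00811% of all, and 0 were called lower, against 0% of all. At an unadjusted p below 0.05, 3107 probe sets of the table were higher and 4541 lower. Nothing is read from these counts, since the FOS result was known when the genes were chosen. The call was kept with a further quantile normalization and ended when control 1, control 3, endosulfan 2 or endosulfan 3 was left out, at differences of 2.66 to 2.83, and it was kept without control 2 or endosulfan 1, at 2.77 and 2.50 on the log2 scale.

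The median difference over the 23 probe sets was 0.03, beside 0.05 over all probe sets. The 19 probe sets of the other 6 genes were divided between 10 on the higher and 9 on the lower side, with a median of 0.01. Their differences ran from -0.32 to 0.28. The smallest FOS difference, 0.29 ± 0.14 (SE) on 11734658_s_at, and that of JUNB, 0.28 ± 0.16 (SE), are not apart within their errors, and their order turned without control 2, at 0.26 and 0.39, and with array weights, at 0.24 and 0.25.

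Across the 6 arrays the other FOS probe sets were compared with 11734659_a_at. Pearson's r with 11734659_a_at was 0.96 for 11749291_a_at, 0.97 for 11749852_s_at and 0.77 for 11734658_s_at. These points share 6 arrays in 2 groups, and the step between the groups raises r. After each group's mean was subtracted, r was 0.27, 0.58 and 0.66, and 6 arrays are too few to rank these values. The largest r with 11734659_a_at among the other family members was 0.70 for JUNB, followed by 0.59 for JUND, and the lowest was -0.75 for JUN 11718394_at.

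The genes whose pattern was most like that of FOS 11734659_a_at were sought among 5497 probe sets of single, non-member genes that spanned at least 1 on the log2 scale over the 6 arrays. EGR1, a zinc finger factor and immediate early gene, came first, with r = 0.995 on 11752940_a_at. It read 6.23, 6.47 and 6.47 in control arrays and 8.02, 7.85 and 7.75 in endosulfan arrays. TCF15, a bHLH factor, had r = 0.976, NQO1, a quinone reductase, 0.966, METRNL, a secreted protein, 0.961 and KLC3, a kinesin light chain, 0.957. In each of the 5 the groups did not overlap, as on the higher side for 11.5% of all probe sets. That follows largely from choosing them by likeness to a probe set that steps between the groups, so nothing is read from it. Of the 5497 probe sets, 39 had an r of at least 0.9. The r values are a description over 6 arrays that share 2 groups.

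**Figure D3:**
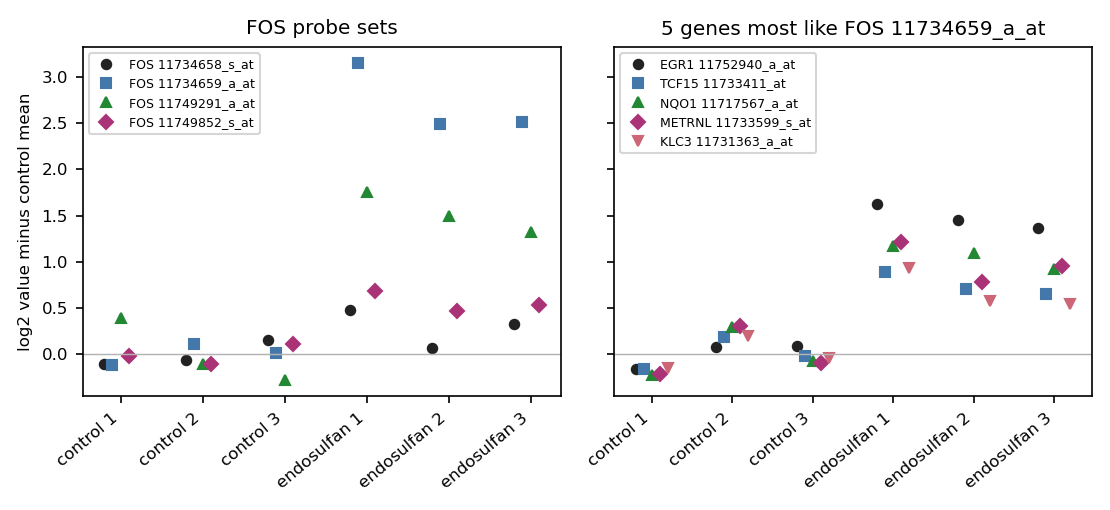
Log2 value minus the control mean (y axis) on each of the 6 arrays (x axis) for the 4 FOS probe sets (left) and for the 5 genes most like FOS 11734659_a_at (right), with 1 marker shape per probe set. The step between the groups is 2.72 for FOS 11734659_a_at and 1.48 for EGR1 11752940_a_at, and the 4 other genes on the right stepped by 0.68 to 1.06.

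Around AP-1, 6 lists of genes were examined in the same fit: kinases upstream, factors at the FOS and JUN promoters, other dimer partners, mRNA and protein turnover, target genes and other immediate early factors. Genes without a probe set that names them alone were not analysed here. In 5 of the 6 lists, 0 probe sets passed the limma test at a Benjamini-Hochberg adjusted p below 0.05 in either direction. The exception was the immediate early factors, with 3 of 49 probe sets, all of EGR1, against 0.00811% of all probe sets called higher. The lists were chosen with earlier results of these data known, so nothing is read from this count. The adjusted p of the genes named below, EGR1 apart, was 0.215 to 0.484 with limma, and their values are given without a call. Counts at an unadjusted limma p below 0.05 are given as higher and then lower. They stand against 3107 higher and 4541 lower among all 49293 probe sets at that threshold. Values are means ± SD of 3 arrays each on the log2 scale, control first.

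The MAP kinase cascades, which phosphorylate JUN and the factors on the FOS promoter, had 21 genes with 60 probe sets and a median difference of 0.07. Without overlap, 7 probe sets (11.7%) were on the higher and 9 (15.0%) on the lower side, against 11.5% and 9.24% of all probe sets, and at an unadjusted limma p below 0.05 there were 2 and 10. The ERK kinase MAP2K2 was at 9.00 ± 0.35 and 9.42 ± 0.03, and the p38 kinase MAPK12 at 8.25 ± 0.23 and 8.60 ± 0.11. Lowest were MAPK10, the neuronal JNK, at 6.47 ± 0.44 and 5.51 ± 0.44, and RPS6KA2, a ribosomal S6 kinase downstream of ERK, at 7.98 ± 0.42 and 7.07 ± 0.23. One of the 4 probe sets of RPS6KA2 had the opposite sign.

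The factors that bind the FOS and JUN promoters, with their coactivators, had 16 genes with 68 probe sets, and a median of -0.02. Without overlap, 7 (10.3%) were higher and 12 (17.6%) lower, against 11.5% and 9.24% of all, and at an unadjusted limma p below 0.05 there were 2 and 10. SRF, the serum response factor, was at 7.38 ± 0.12 and 7.74 ± 0.21, with both of its probe sets on the higher side. CREM, a cAMP response element modulator, was at 6.74 ± 0.38 and 7.39 ± 0.31, with 6 of 10 probe sets on that side. The ternary complex factor ELK3 was at 6.50 ± 0.18 and 5.33 ± 0.54, and the other of its 2 probe sets had the opposite sign. The acetyltransferase CREBBP, a coactivator of CREB, was at 8.60 ± 0.35 and 7.64 ± 0.14, with 5 of 5 probe sets on the lower side.

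Other bZIP partners had 13 genes with 38 probe sets, and a median of 0.08. Without overlap, 4 (10.5%) were higher and 3 (7.89%) lower, near the 11.5% and 9.24% of all, and at an unadjusted limma p below 0.05 there were 2 and 3. The small MAF protein MAFF was at 5.86 ± 0.22 and 6.43 ± 0.23, and MAFA at 2.79 ± 0.13 and 3.18 ± 0.27. The MAFA values are low: on these arrays a mean of 3.06 lay at the 12.8th percentile of all probe sets. NFE2L2, the oxidative stress factor NRF2, was at 6.72 ± 0.14 and 6.11 ± 0.54. ATF3, which pairs with JUN and is itself induced by stress, was at 6.55 ± 0.12 and 6.06 ± 0.18 on 11719344_a_at, while 3 of its 7 probe sets lay on the higher side.

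Genes of AU-rich mRNA decay and of FOS or JUN protein turnover numbered 15 with 56 probe sets, and a median of -0.07. Without overlap, 2 (3.57%) were higher and 9 (16.1%) lower, against 11.5% and 9.24% of all, and at an unadjusted limma p below 0.05 there were 0 and 16. CNOT1, the scaffold of the main deadenylase, was at 6.11 ± 0.64 and 4.71 ± 0.41, with 3 of 4 probe sets on the lower side. COP1, a ubiquitin ligase for JUN, was at 8.77 ± 0.48 and 8.06 ± 0.28. The deadenylase PARN was at 4.30 ± 0.07 and 4.55 ± 0.25 and the mRNA-stabilising ELAVL1 at 9.02 ± 0.17 and 9.25 ± 0.05, each with most of its other probe sets on the opposite side.

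AP-1 target genes had 22 genes with 69 probe sets, a median of 0.11, and 53 on the higher and 16 on the lower side, where 60.1% of all probe sets were on the higher side. Without overlap, 13 (18.8%) were higher and 2 (2.90%) lower, against 11.5% and 9.24% of all probe sets, and at an unadjusted limma p below 0.05 there were 9 and 2. The secreted chaperone clusterin, CLU, was at 7.23 ± 0.23 and 7.91 ± 0.23, and ezrin, EZR, which links actin to the membrane, at 4.39 ± 0.04 and 4.92 ± 0.20. The urokinase receptor PLAUR was at 5.21 ± 0.11 and 4.92 ± 0.05 and the hyaluronan receptor CD44 at 3.60 ± 0.04 and 3.45 ± 0.09, both with most of their probe sets on the other side.

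Other immediate early factors had 15 genes with 49 probe sets, and a median of 0.11. Without overlap, 9 (18.4%) were higher and 2 (4.08%) lower, against 11.5% and 9.24% of all, and at an unadjusted limma p below 0.05 there were 8 and 2. EGR1 was at 6.78 ± 0.07 and 8.52 ± 0.14 on 11717860_a_at, adjusted p 0.00913 by limma after Benjamini-Hochberg adjustment. All 6 of its probe sets were on the higher side and 3 were called. As the list was chosen with earlier results known, nothing is read from these calls. The calls were not stable: over all 6 lists, 0 probe sets passed when control 1, control 3 or any 1 of the 3 endosulfan arrays was left out, 2 passed without control 2, and 0 with the replicate block or the spike-in covariate. EGR3, of the same family, was at 3.66 ± 0.15 and 4.38 ± 0.31, with 4 of 4 probe sets on the higher side. MYC was at 11.14 ± 0.11 and 10.57 ± 0.10 on its only probe set, on the lower side with ATF3.

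**Figure D4:**
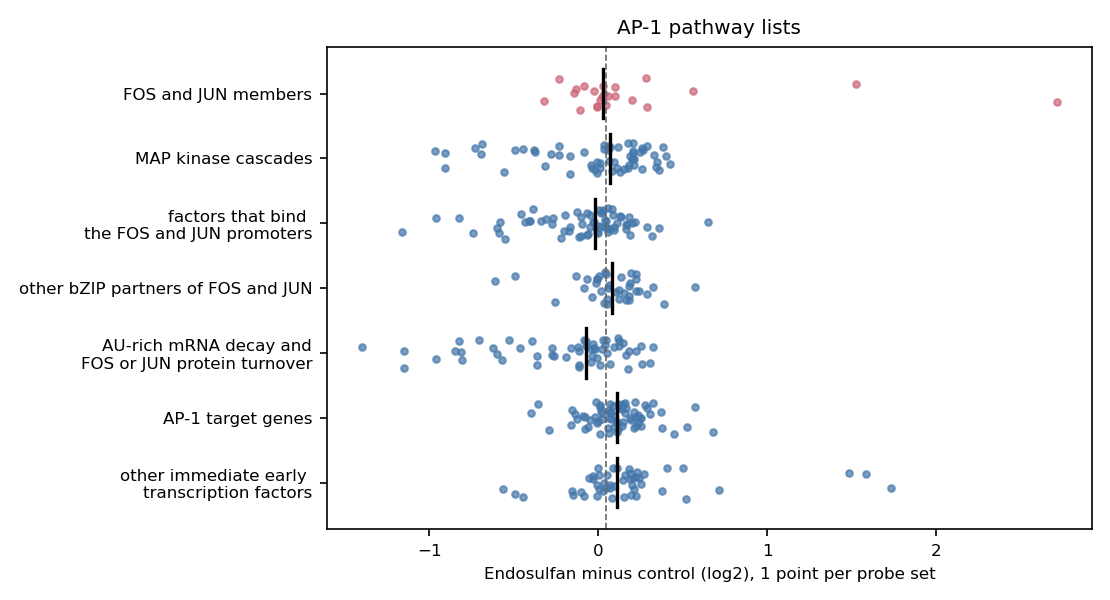
Endosulfan minus control difference (x axis, log2) of each probe set (points) of the FOS and JUN members (red) and of the 6 AP-1 pathway lists (blue), with black bars at each list's median and a dashed line at the median of all probe sets, 0.05. The list medians lie between -0.07 and 0.11, and single probe sets of FOS and EGR1 lie farthest to the right.

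Some measures of the arrays differed between the groups. The poly-A spike-in transcripts, added to the RNA before labelling, averaged 6.57 ± 1.02 in control and 8.11 ± 0.60 in endosulfan arrays (SD, n = 3 each, log2). Their groups overlapped through control 2, with a two-sided exact permutation p of 0.2. In GAPDH, whose ends are used to judge RNA quality, the 3' control probe set exceeded the 5' one by 0.75 ± 0.06 in control and 0.84 ± 0.04 in endosulfan arrays (SD, n = 3 each, log2), with groups that did not overlap and a two-sided exact permutation p of 0.1, the smallest that 3 arrays against 3 allow. Control 2 and endosulfan 2 both had a spike-in level of 7.73, and between these arrays FOS read 4.14 and 6.52 on 11734659_a_at, 4.85 and 6.46 on 11749291_a_at, 5.52 and 6.09 on 11749852_s_at, and 6.61 and 6.73 on 11734658_s_at. This pair was picked for its equal spike-in level and is 1 array against 1, so nothing is read from it. When the fit held each array's spike-in level as a covariate, the difference on 11734659_a_at was 2.73 ± 0.30 (SE) and 0 probe sets of the table were called by limma, with 1003 at an unadjusted p below 0.05. Sympathetic neuroblastoma markers were above the array median on all arrays for 13 of 13 genes measured. Their mean was 10.64 to 10.82 in control and 10.33 to 10.44 in endosulfan arrays, lower without overlap. Differences of the genes ran from -1.33 for ISL1 to 0.27 for PHOX2A, with a median of -0.23. HAND1, GATA3, ISL1, STMN2, ELAVL4 and NEFM were lower without overlap, as were 9.24% of all probe sets. In the rest the groups overlapped, and no marker of this type was higher without overlap, against 11.5% of all. Of markers of other cell types, 4 of 4 haematopoietic, 3 of 5 epithelial, 3 of 6 mesenchymal and 1 of 4 endothelial genes were below the array median on all arrays, and 3 of 3 Schwann or glial genes were above it. This cut sets different probe sets side by side, so it cannot tell which markers are expressed. Epithelial marker means were 4.55 to 4.72 and 4.72 to 4.93 and mesenchymal ones 4.67 to 4.82 and 4.57 to 4.66, while haematopoietic (3.58 to 3.71 and 3.68 to 3.78), endothelial (5.35 to 5.67 and 5.46 to 5.78) and glial (6.08 to 6.21 and 6.00 to 6.31) means overlapped. The part of these shifts in the FOS difference was not tested. In bulk RNA, fewer cells with a transcript and less of it per cell cannot be told apart.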

How the data were processed

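The deposited table gives log2 values of 6 arrays, made by the authors with Affymetrix Expression Console and RMA per the submitters' processing notes. RMA corrects background, equalises the arrays' distributions and summarises probes, so it hides any shift shared by most transcripts. Versions, options and detection calls were not used here, and dim probe sets were kept. The 102 control probe sets were set aside. On the other 49293, endosulfan was compared with control in limma 3.58.1 under R 4.3.3 by a linear model with moderated variances, two-sided, with Benjamini-Hochberg adjustment over all of them. Genes came from the platform annotation, in which 44988 probe sets named 1 gene, and promoters from RefSeq. The fit was tested on simulated data. Figures used matplotlib 3.10.9.

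The members and gene lists were chosen with earlier results of these data known. Named genes are, in each list, those past the threshold and the 2 in each direction with the largest difference among probe sets whose groups do not overlap, and the 5 genes with the highest Pearson's r with the FOS probe set of largest difference. Alternatives were a replicate block, further quantile normalization, median centring, brighter probe sets alone, a robust fit with a variance trend, weights for arrays, a spike-in covariate, averaging each gene's probe sets and leaving out arrays.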

Additional observations from a re-analysis of the deposited data

Results flagged for a closer look

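The poly-A spike-in control probe sets, which the main comparison of FOS and JUN does not use, were higher in endosulfan than in control arrays by 1.55 on the log2 scale, with an exact permutation p of 0.2 (two-sided), where 3 arrays against 3 can give no p below 0.1. Endosulfan 3 was the highest at 8.80 and control 3 the lowest at 5.84.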

How the results depend on the processing

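The difference of FOS 11734659_a_at stayed between 2.44 and 2.83 over 14 alternatives and its call was kept in 8. The call ended with the replicate block (2.72) and with the spike-in covariate (2.73). It also ended when control 1, control 3, endosulfan 2 or endosulfan 3 was left out. The mean of the 4 FOS probe sets, not counted among those 14, differed by 1.27 and was not called. With 1 array left out the difference of 11734659_a_at ranged from 2.50 to 2.83, and it was lowest, at 2.44, without control 1 and endosulfan 1. Whether the replicate numbers pair the arrays is not stated in the labels. Deviations of same-numbered arrays from their group means correlated at -0.51, -0.40 and 0.05, and no array correlated best with the array of its own number. These deviations are centred within groups of 3 arrays, so the correlations cannot decide whether the arrays were paired. Against 4 probe sets called higher and 0 lower, the replicate block and the spike-in covariate gave 0 higher, the fit without control 1 and endosulfan 1 gave 1, and array weights gave 3003 higher and 4098 lower. Leaving out 1 array gave 0 to 4 higher and 0 to 3 lower. Of the pathway lists, 3 probe sets passed, 0 with the replicate block, the covariate or without control 1 and endosulfan 1, 55 with array weights, and 0 to 2 with 1 array left out. With array weights 3 FOS probe sets were called. That setting called 3003 higher and 4098 lower among all probe sets tested, so nothing is read from these 3 or from the 55. No probe set of the other 6 genes was called in any alternative. Of the 14, all but array weights called only 0 to 4 higher and 0 to 3 lower among all probe sets. Little can therefore be read from that absence. The cause of these changes in the calls was not tested. Without scanner intensities, signal over background is unknown.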
